A study of Mus musculus with 2 samples.

Results

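The matrix proteases and their inhibitors were taken as a module of 42 genes, chosen by symbol from the 28001 features listed in both libraries, where each occurred once. The 42 were 12 matrix metalloproteinases (MMPs), the 4 tissue inhibitors of metalloproteinases (TIMPs), 15 ADAMTS proteases, the plasminogen activators *Plau* and *Plat*, the serpins *Serpine2* and *Serpinf1*, the procollagen-processing genes *Bmp1*, *Pcolce* and *Pcolce2*, and *Pappa*, *Pcsk6*, *Htra1* and *Htra3*. Levels are unique molecular identifiers (UMIs, each one captured transcript) of a gene over all UMIs of a population, scaled to a fixed total in the usual way (CPM), with exact 95% Poisson intervals in parentheses that cover counting error only. Because the assay reads transcript 3′ ends, CPM was not divided by gene length, and no order is drawn between different genes from it. Where a pair of values is given, E10-P56 comes first and the adult pulse second.

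Both libraries held tdTomato+ cells sorted from adult skeletal muscle of C57BL/6J mice that were Hic1 CreERT2/CreERT2 and Rosa26 LSL-tdTomato/tdTomato, so the recombinase stood at both *Hic1* alleles in each and marked cells in which *Hic1* was active at dosing. In E10-P56, pregnant dams received 7.5 mg tamoxifen by gavage at embryonic day 10 and muscle was collected at postnatal day 56. By the methods, dams of litters traced into adulthood were also given progesterone, and the young were delivered by caesarean and raised by foster mothers. In the adult pulse, animals of 8 weeks received 5 daily injections of 2.5 mg. The labels give the same collection day for it, and the paper gives a later one. By the methods, muscle of 2 hindlimbs was pooled and cells carrying endothelial or blood lineage antigens were excluded in the sort. Each labelling time was 1 library, so no test between them was possible. Labelling time, progesterone, delivery and fostering, preparation, chemistry and software version cannot be told apart. A lower level in a population can be fewer transcripts per cell or fewer cells that carry them.

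MMPs are zinc proteases that cleave collagens, gelatin and other matrix proteins, at the cell surface for the membrane-bound members, and TIMPs bind and inhibit them. ADAMTS proteases include enzymes that cleave the large proteoglycans and enzymes that remove the amino-terminal propeptide of fibrillar procollagens, while BMP1 removes the carboxy-terminal propeptide with the help of the PCOLCE enhancers. In muscle, fibroblasts, tendon cells and mural cells of vessels make much of the connective tissue that these enzymes act on.

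Promoters are shown for *Mmp3* and *Timp1*, the members with the largest fold between the libraries among those above 1 CPM in fibroblast-like cells of both, whose values are given further on. They are from RefSeq on GRCm38.p6, from 250 bases before to 50 after the annotated start, at chr9:7445572-7445871 and chrX:20869916-20870215, both on the plus strand. Capitals mark TGANTCA, the motif of the AP-1 factors, which reads the same on both strands.
*Mmp3*: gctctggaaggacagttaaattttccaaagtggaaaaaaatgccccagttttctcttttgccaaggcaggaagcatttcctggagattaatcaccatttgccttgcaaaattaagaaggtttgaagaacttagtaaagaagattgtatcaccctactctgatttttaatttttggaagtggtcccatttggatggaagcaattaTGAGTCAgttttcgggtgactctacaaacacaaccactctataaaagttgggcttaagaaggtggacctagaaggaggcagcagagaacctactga
*Timp1*: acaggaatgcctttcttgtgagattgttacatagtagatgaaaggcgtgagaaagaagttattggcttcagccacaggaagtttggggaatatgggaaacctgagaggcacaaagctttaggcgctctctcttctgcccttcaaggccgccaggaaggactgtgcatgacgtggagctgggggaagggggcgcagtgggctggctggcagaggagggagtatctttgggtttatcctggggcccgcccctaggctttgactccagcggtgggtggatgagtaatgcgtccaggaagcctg
The *Mmp3* window held 1 match, beginning at position -46 from the start, and the *Timp1* window none. Only this exact motif was searched, so stretches that differ from it at a base, as tgagtaa in the *Timp1* window does, were not counted. Of 25 members with a promoter in the table, 1 held the motif (4.0%), against 7.81% of all 32851 promoters. TATAAA, searched on both strands, was in the windows of *Mmp3* and *Adamts1*, 8.0% of the 25, against 13.6% of all. In GENCODE M21, *Timp1* lies within *Syn1*, *Timp3* within *Syn3* and *Timp4* within *Syn2*, each on the opposite strand.

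After filtering, 6087 E10-P56 cells and 8567 adult pulse cells remained, with median depths of 7648 and 7344 UMIs, and 11 barcodes occurred among the kept cells of both. Clusters were named from marker lists that held none of the 42 genes. There were 4158 and 7076 fibroblast-like cells, in that order, 433 and 397 pericyte-like cells, 262 and 138 like smooth muscle cell progenitors (SMCP-like), 230 and 26 like vascular smooth muscle (VSMC-like), 213 and 565 tenocyte-like and 176 and 36 perineurial-like cells. The summed tenocyte list reached 27767 and 19793 CPM in tenocyte-like cells against 173 and 321 CPM in fibroblast-like cells, and the pericyte list 24236 and 21839.7 CPM against 184 and 184 CPM. SMCP-like cells carried 1817 and 939 CPM of their own list, and also 9568 and 9149 CPM of the pericyte list and 8228 and 8030.2 CPM of the VSMC list. Immune markers summed to at most 91.8 CPM in any named population. Of the 9 fibroblast-like clusters, 6 came almost wholly from 1 library, such as the largest with 33 E10-P56 and 2386 adult pulse cells, and each library's mean was therefore subtracted before these cells were divided further. Below, "highest" compares the 6 populations named above unless others are given.

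Together the 42 genes made up 1.15% and 1.06% of the UMIs of fibroblast-like cells. Tenocyte-like cells were close to this, at 1.06% and 1.09%. The share was lower in pericyte-like cells, at 0.44% and 0.452%, and in SMCP-like cells, at 0.578% and 0.581%. The sums of the families differed in how far they fell outside fibroblast-like cells. Summed MMP levels were 389 and 438 CPM in pericyte-like cells against 1824 and 1075 CPM in fibroblast-like cells, whereas the TIMP sum was 2022 and 1661 CPM against 2470.3 and 2336 CPM. The heat map of all members shows these levels by population.

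**Figure D1:**
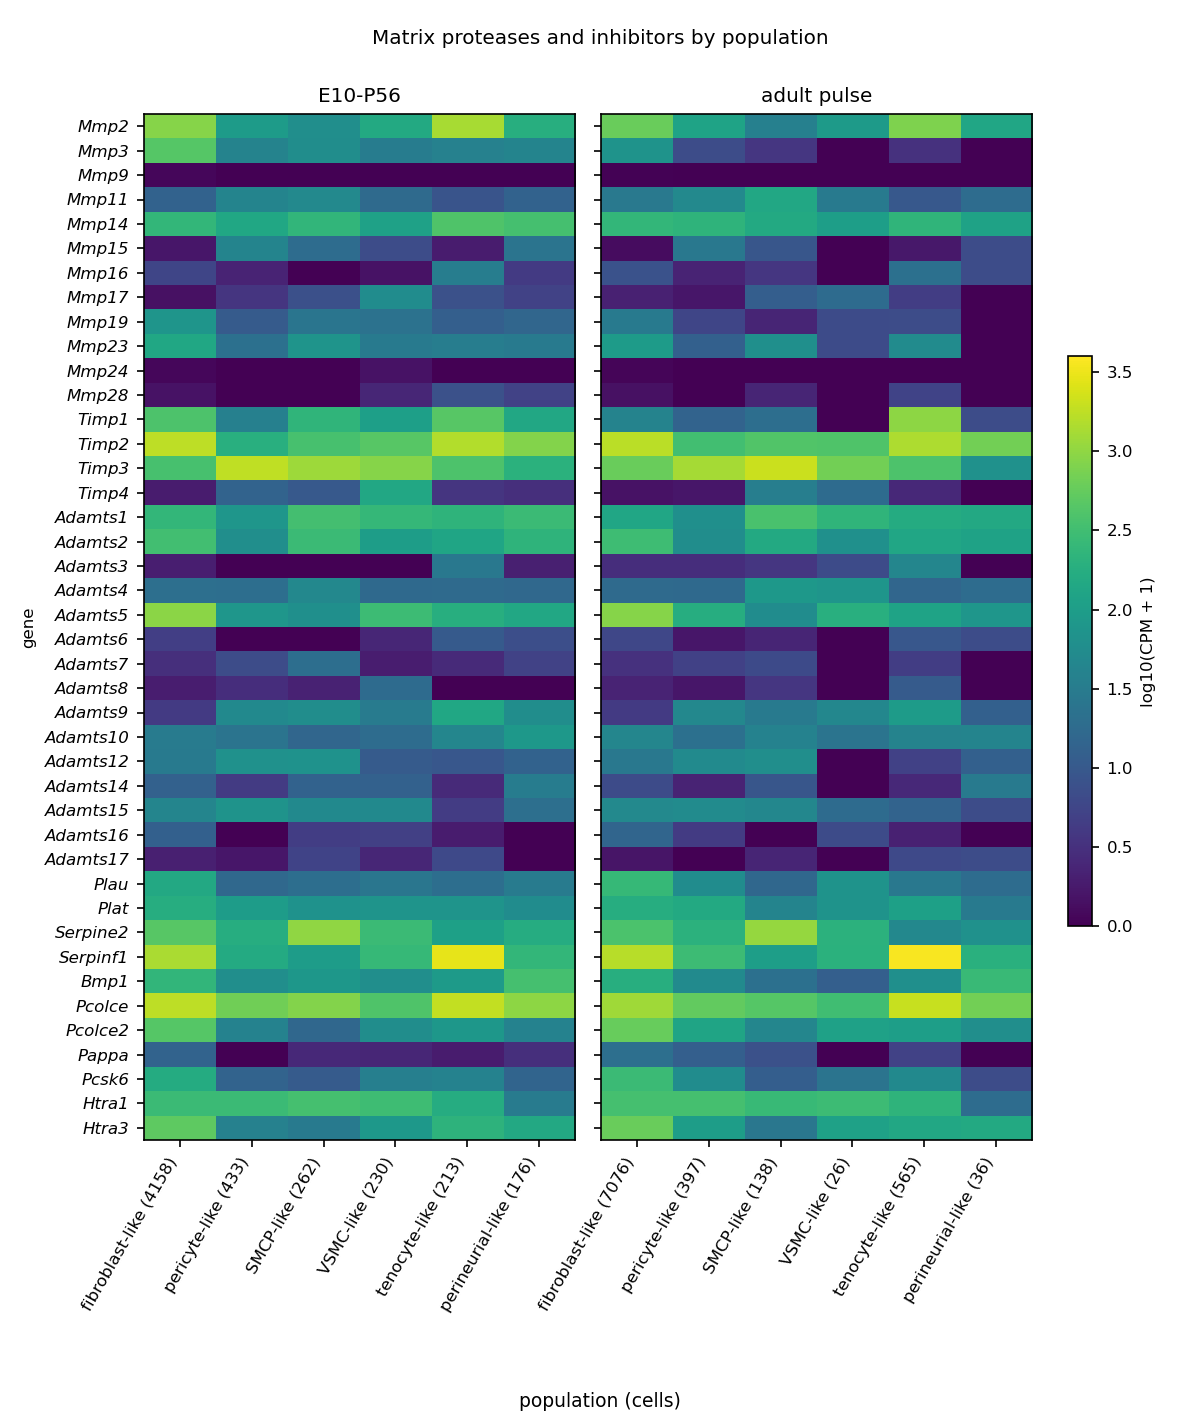
Levels of the 42 genes (rows) in 6 named populations (columns, number of cells in parentheses) of E10-P56 on the left and the adult pulse on the right, as log10(CPM + 1) in colour. In its row *Timp3* is brightest in the pericyte-like and SMCP-like columns and *Serpinf1* in the tenocyte-like column of both libraries.

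Of the 42 genes, 39 reached 1 CPM on average over the libraries, and *Mmp9*, *Mmp24* and *Mmp28* did not. Comparisons between populations used a 2-fold difference of the same direction in both libraries as a call. Against fibroblast-like cells, 22 of the 39 were called in pericyte-like cells, 3 higher and 19 lower, where 21.1% of all tested features were called, 11.0% higher and 10.1% lower. In SMCP-like cells 26 were called, 10 higher and 16 lower, against 15.0% of features, 7.6% higher and 7.38% lower. That count was 14 when cells were named singly from their markers and 16 when they were thinned to 1500 UMIs. The 15.0% belongs to the main setting, and shares at these settings are not given, so the drop is not read as particular to the members. Tenocyte-like cells gave 21 calls, 6 higher and 15 lower, against 12.8% of features, 5.47% higher and 7.35% lower. Perineurial-like cells, of which the adult pulse held only 36, gave 16 calls, 1 higher and 15 lower, against 10.2% of features, 6.17% higher and 3.98% lower. That count was 10 with each library clustered alone, a setting at which the share of features is likewise not given. In VSMC-like cells, compared in E10-P56 alone, 29 were called, 6 higher and 23 lower, against 29.1% of features, 12.1% higher and 17.1% lower. The median log2 ratio of the tested members in pericyte-like cells was -1.40 and -1.16, beside 0.26 and 0.24 over all tested features. In tenocyte-like cells the members' medians were -0.28 and -0.60, beside 0.05 and -0.08. Over the 5 populations compared in both libraries, 31 of the 39 had the same highest population, where 50.3% of features did. These 31 divided into 13 highest in fibroblast-like, 8 in tenocyte-like, 6 in SMCP-like, 2 in pericyte-like and 2 in perineurial-like cells.

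The 4 TIMPs had 4 different distributions. *Timp3*, whose product stays bound to the matrix, reached 1786 CPM (1719.9 to 1854) in pericyte-like cells of E10-P56, against 1319.5 CPM (1262 to 1379) in those of the adult pulse. SMCP-like cells had 1182 and 2021 CPM of it, so the order of these mural populations was opposite in the 2 libraries, and both lay above fibroblast-like cells at 350.1 and 598 CPM. *Timp2*, which also takes part in the activation of MMP2 at the cell surface, was highest in fibroblast-like cells, with 1723 and 1698 CPM, and fell to 187 and 328 CPM in pericyte-like cells. *Timp4* reached 1379 CPM (1138 to 1657) in the 20 endothelial-like cells of E10-P56 and 1217 CPM (1075 to 1372) in the 53 of the adult pulse, cells that the sort was meant to exclude and that also carried 7899 and 1736 CPM of the pericyte list. Outside them it reached 141 CPM (126 to 159) in VSMC-like cells of E10-P56, where the endothelial list summed to 28.2 CPM, and the 26 VSMC-like cells of the adult pulse gave 3 UMIs, or 17.2 CPM, while fibroblast-like cells had 0.868 and 0.48 CPM. SMCP-like cells had 9.01 and 33.9 CPM of *Timp4*, from 23 and 25 UMIs. Their log2 ratio to fibroblast-like cells in the adult pulse moved from 6.14 to 0.0 when cells were named singly from their markers.

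*Timp1*, a soluble inhibitor that many cells induce on stimulation, behaved differently in the 2 libraries. In the adult pulse it was highest in tenocyte-like cells, at 987 CPM (958 to 1017) against 40.1 CPM (38.4 to 41.7) in fibroblast-like cells, a ratio of 24.6 (23.4 to 25.9). In E10-P56 tenocyte-like cells had 465 CPM (427 to 506) and fibroblast-like cells 396 CPM (390.3 to 402), a ratio of 1.17 (1.08 to 1.28). Without the 3 fibroblast subsets of under 50 cells in a library, described below, the log2 ratio in E10-P56 moved from 0.23 to 1.25. The tenocyte-like level was higher in the adult pulse and the fibroblast-like level higher in E10-P56. The plot of the TIMP genes sets the separation of the libraries for *Timp1* beside their closeness for *Timp2*.

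**Figure D2:**
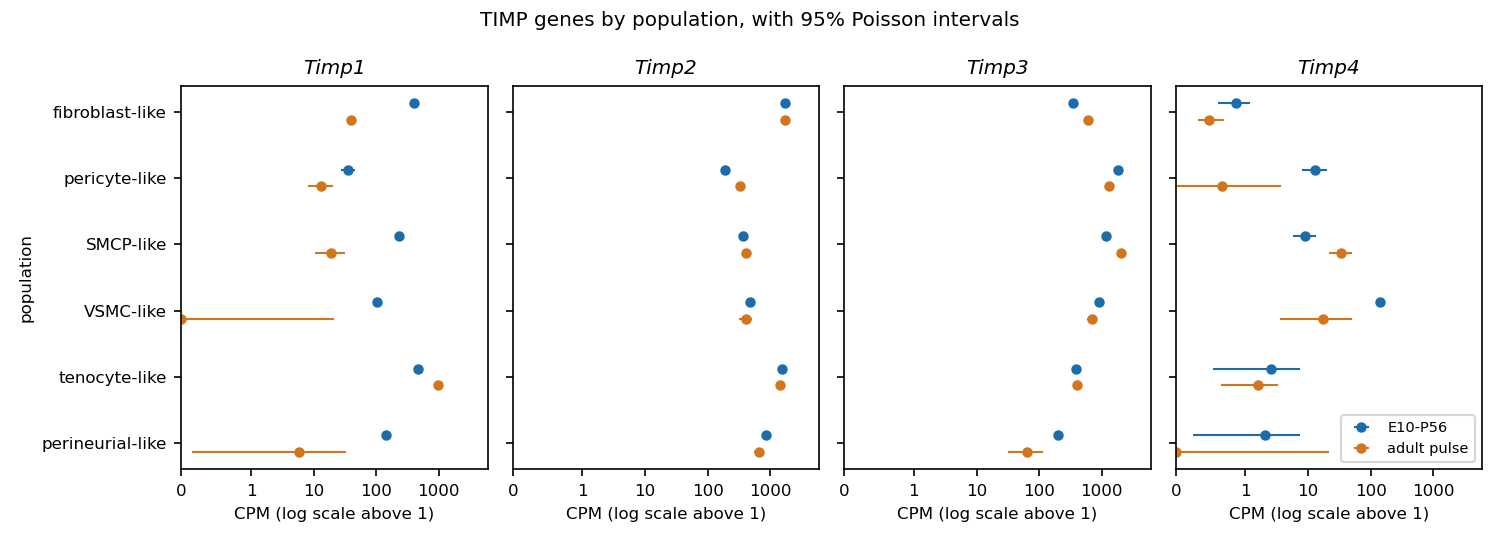
Level of each TIMP gene in CPM (horizontal axis, logarithmic above 1) in 6 populations, with points for the libraries and bars for 95% Poisson intervals. *Timp2* points of the libraries nearly coincide in fibroblast-like cells, whereas for *Timp1* they stand at 396 and 40.1 CPM.

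Among the MMPs, the gelatinase gene *Mmp2* was highest in tenocyte-like cells at 1362 and 795 CPM, followed by fibroblast-like cells at 896 and 605 CPM. Pericyte-like cells had 92.9 and 121 CPM of it, and SMCP-like cells 59.6 and 36.6 CPM. When cells were named singly from their markers, the log2 ratio of SMCP-like to fibroblast-like cells in the adult pulse moved from -4.05 to -0.67. *Mmp14*, which encodes the membrane protease that activates MMP2, varied much less, between 113 and 401 CPM over the 6 populations of E10-P56 and between 103 and 242 CPM in the adult pulse. Among the 6 populations, the stromelysin gene *Mmp3* and *Mmp19* were highest in fibroblast-like cells of both libraries. *Mmp23* was also highest there, with 138 and 93.6 CPM.

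Other MMPs were at low levels in fibroblast-like cells and marked other populations. *Mmp15*, a membrane-type MMP, had 0.633 and 0.326 CPM in fibroblast-like cells but 40.9 CPM (31.5 to 52.4) and 27.0 CPM (19.4 to 36.6) in pericyte-like cells. Endothelial-like cells had more of it, 60.5 and 77.5 CPM, from 5 and 17 UMIs. Its level was 116 CPM (96.5 to 138) in E10-P56 Schwann-like cells, which carry the myelin genes, and 49.0 CPM, from 8 UMIs, in those of the adult pulse. *Mmp17*, a membrane-type MMP with a lipid anchor, reached 55.9 CPM (46.1 to 67.1) in VSMC-like cells of E10-P56, whereas the 26 such cells of the adult pulse gave 3 UMIs. *Mmp16*, another membrane-type MMP, was highest in tenocyte-like cells, 6.99-fold and 2.84-fold above fibroblast-like cells. *Mmp11*, or stromelysin-3, was highest in SMCP-like cells at 48.6 and 142 CPM against 12.7 and 27.7 CPM in fibroblast-like cells. *Mmp9* gave 6 and 2 UMIs in all fibroblast-like cells, and a level of 9.35 CPM (7.52 to 11.5) in the E10-P56 cells of a cluster led by *Slc16a3*, *Mki67* and *Top2a*. The same E10-P56 cells had a median of 27247 UMIs. After thinning each cell to 1500 UMIs, 28.7% of them had a UMI of the cycling marker list, against 0.697% of E10-P56 fibroblast-like cells. Among the 29 adult pulse cells of the cluster the share was 72.4%. The *Timp1* level of its E10-P56 cells was 2532 CPM (2500.0 to 2564), and that of its 29 adult pulse cells 1209 CPM, from 703 UMIs. Its E10-P56 cells also exceeded fibroblast-like cells in *Mmp19* (144 against 75.6 CPM), *Mmp23* (173 against 138 CPM) and *Mmp3* (478 against 452 CPM). In its adult pulse cells *Mmp19* was higher (36.1 against 28.7 CPM), and *Mmp23* (68.8 against 93.6 CPM) and *Mmp3* (17.2 against 68.6 CPM) were lower.

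The proteoglycan-cleaving ADAMTS genes separated by population. *Adamts5*, an aggrecanase gene, was highest in fibroblast-like cells at 930.1 and 869 CPM, against 76.7 and 174 CPM in pericyte-like cells. *Adamts9*, a versican-cleaving protease gene, showed the reverse, with 3.03 and 3.05 CPM in fibroblast-like cells. It reached 138 CPM (118 to 161) and 93.3 CPM (84.4 to 103) in tenocyte-like cells, and 49.4 and 46.7 CPM in pericyte-like cells. SMCP-like cells had 58.0 and 29.8 CPM of it and VSMC-like cells 30.1 and 45.8 CPM. Endothelial-like cells had 181 and 54.7 CPM, from 15 and 12 UMIs. *Adamts4*, the other aggrecanase gene, and *Adamts1* were highest in SMCP-like cells. *Adamts4* had 46.3 and 82.6 CPM there against 19.6 and 16.3 CPM in fibroblast-like cells, and *Adamts1* 337 and 363 CPM against 244 and 136 CPM. The *Adamts4* log2 ratio to fibroblast-like cells in the adult pulse moved from 2.34 to 0.04 when cells were named singly from their markers. In E10-P56 it moved from 1.24 to 0.94, under the 2-fold call, without the small fibroblast subsets. *Adamts15* was highest in pericyte-like cells at 70.2 and 53.3 CPM, not far above fibroblast-like cells at 43.1 and 48.3 CPM. *Adamts12* was called higher in SMCP-like cells, with 68.2 and 58.2 CPM against 28.5 and 26.7 CPM, and fell under 2-fold in E10-P56 without the small fibroblast subsets and in the adult pulse with each library clustered alone. Versican itself (*Vcan*) had 474 and 336 CPM in fibroblast-like cells and 91.8 and 69.4 CPM in tenocyte-like cells. *Adamts10*, linked to fibrillin microfibrils, had 30.7 and 44.4 CPM in fibroblast-like cells and was highest in perineurial-like cells of E10-P56, at 82.2 CPM, where its log2 ratio to fibroblast-like cells moved from 1.42 to 0.70 on thinning. In the adult pulse it was 41.1 CPM in perineurial-like cells.

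The 3 procollagen N-proteinase genes were each highest in a different population. *Adamts2* was highest in fibroblast-like cells at 325 and 306 CPM. *Adamts3* was highest in tenocyte-like cells, at 26.6 CPM (18.1 to 37.8) and 44.6 CPM (38.5 to 51.3) against 1.03 and 1.94 CPM in fibroblast-like cells. *Adamts14* was highest in perineurial-like cells, at 31.2 CPM (21.1 to 44.6) and 29.4 CPM (9.54 to 68.6), the latter from 5 UMIs, 2.60-fold and 5.21-fold above fibroblast-like cells. It was the only member called higher there. *Mmp15* (36.1-fold and 18.0-fold) and *Adamts9* (18.9-fold and 3.85-fold) were also past 2-fold in both libraries. Their smallest counts, 1 and 2 UMIs, were too few for a call. The E10-P56 log2 ratio of *Adamts14* moved from 1.38 to 0.80 when cells were named singly from their markers. On the C-proteinase side, *Bmp1* was also highest in perineurial-like cells, at 349 and 270.3 CPM against 229.9 and 179 CPM in fibroblast-like cells, under the 2-fold call. Its enhancer gene *Pcolce* was high in every population, from 407 CPM in VSMC-like to 1833 CPM in tenocyte-like cells of E10-P56, while *Pcolce2* was highest in fibroblast-like cells at 451 and 576 CPM, with 14.9 and 43.3 CPM in SMCP-like cells.

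The urokinase gene *Plau* was highest in fibroblast-like cells, at 149 and 253 CPM against 18.9 and 26.6 CPM in tenocyte-like cells, and the tissue activator gene *Plat* had 173 and 175 CPM there. *Serpine2*, which encodes an inhibitor of thrombin and plasminogen activators, reached in SMCP-like cells 995 CPM (956 to 1034) and 1073 CPM (999 to 1150.1), and *Serpinf1*, a serpin without known protease inhibition, reached 2920.2 CPM (2823 to 3020.0) and 3625 CPM (3568 to 3682) in tenocyte-like cells. In E10-P56 both were close to the 2-fold call, with log2 ratios to fibroblast-like cells of 1.10 and 1.06 that fell to 0.97 without the small subsets and to 0.88 with each library clustered alone. Of the remaining genes, *Htra3* and *Pcsk6* were highest in fibroblast-like cells, with 503 and 607 CPM and with 165 and 281 CPM. *Htra1*, a secreted serine protease gene, had 284 and 345 CPM in fibroblast-like cells and similar levels in mural cells, 282 and 341 CPM in the pericyte-like, and was lowest in perineurial-like cells, at 30.2 and 17.6 CPM. The other members, *Adamts6*, *Adamts7*, *Adamts8*, *Adamts16*, *Adamts17*, *Pappa* and the 3 under 1 CPM, stayed under 20 CPM in each of the 6 populations with at least 50 cells.

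A wider list held 63 further genes of proteolysis. Unlike the members, these genes were not kept out of the clustering, and *Serping1* among them is also a fibroblast marker, so their counts are not independent of the naming. Of the 43 that could be tested in pericyte-like cells, 17 were called, 2 higher and 15 lower, and in SMCP-like cells 18 were called, 3 higher and 15 lower. Tenocyte-like cells gave 18 calls of 43, 5 higher and 13 lower, and perineurial-like cells 13 of 43, 2 higher and 11 lower. In fibroblast-like cells 8 of 46 differed between the libraries, 1 higher and 7 lower in the adult pulse. The members' background percentages apply to these counts too. *Serpini1*, or neuroserpin, was more than 4-fold higher in both libraries, with 72.8 and 122 CPM in pericyte-like cells against 0.563 and 0.771 CPM in fibroblast-like cells. *Pcsk5*, a proprotein convertase gene, was the one gene of the list more than 4-fold higher in tenocyte-like cells, at 257 and 228 CPM.

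Within fibroblast-like cells, 6 of 9 subsets held at least 50 cells in each library. They are named by the fixed marker list each met, or by leading genes where it met none: subset 0 (*Smoc2*, *Hmcn2*), subset 1 (*Pi16*, *Smpd3*, *Dact2*), subset 2 (*Cd55*, *Stmn4*, *Efemp1*), subset 3 (*Apoe*, *Cxcl13*, *Fgf10*), subset 4 (*Clu*, *Meox1*, *Mgp*, *Comp*) and subset 5 (led by *Fmo2* and *Gdf10*). Across these, 29 of 37 members that could be tested spanned at least 2-fold between the highest and the lowest subset in both libraries, where 30.9% of features did. With library means not subtracted before the division, 5 of 28 did, against 4.91% of features. That division gave other subsets, again compared only with at least 50 cells in each library, so 29 and 5 are not like counts. Of the 37, 22 had the same highest subset in both libraries, where 44.1% of features did. Where a subset is called highest below, only these 6 are compared.

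Subset 0 was highest for *Htra3*, at 859 and 939.9 CPM, and for *Plau*, at 309 CPM (297 to 322) and 455 CPM (445 to 465). Subsets 1 and 2 shared high *Adamts5*, *Timp2* and *Pcolce2*. For *Pcolce2* the levels were 849 and 1017 CPM in subset 1 and 709.8 and 1009.7 CPM in subset 2, against 236 and 199.8 CPM in subset 0. They differed in *Pcsk6*, a proprotein convertase gene, which reached 498 CPM (475 to 521) and 606 CPM (593 to 620.2) in subset 2, against 313 and 257 CPM in subset 1, 287 and 270.1 CPM in subset 0 and 14.7 and 29.7 CPM in subset 3. Chosen after its values were seen, *Adamts16* was highest in these same subsets among the 6, with 53.6 CPM (47.8 to 59.9) and 46.1 CPM (42.2 to 50.2) in subset 1 and 21.8 and 22.4 CPM in subset 2, against 1 and 5 UMIs in all cells of subset 0. The E10-P56 cells of subset 6, described below, held a further 15.0% of its fibroblast-like UMIs there.

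Subset 3 had leading genes that included the adipocyte genes *Cfd*, *Fabp4*, *Adipoq* and *Cd36*. Among the 6 subsets it was highest for *Mmp3*, at 793 CPM (774 to 811) and 292 CPM (279 to 306), and for *Adamts4*, at 63.7 CPM (58.6 to 69.1) and 63.8 CPM (57.6 to 70.5). It held 69.0% and 40.3% of the *Adamts4* UMIs of fibroblast-like cells, and 17.0% and 8.76% of these cells. The 14 immediate early genes, which respond to tissue dissociation among other stimuli, were also highest there of the 6 subsets, summing to 14446 and 27123 CPM, and the adipocyte list summed to 1010.2 and 35.7 CPM in subset 3, against at most 13.3 CPM in the other 5. Their part in these levels was not tested. Subset 4 was highest for *Pappa*, an IGFBP protease gene also chosen after its values were seen, at 43.7 CPM (36.5 to 52.0) and 52.4 CPM (46.6 to 58.7), against 0.694 and 0.891 CPM in subset 1. *Mmp23* was high in subsets 1 and 5, at 186 and 199 CPM and at 199.9 and 178 CPM. The plot by subset shows that for *Adamts4*, *Adamts16* and *Pappa* the intervals of the libraries overlapped in the subset where each was highest.

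**Figure D3:**
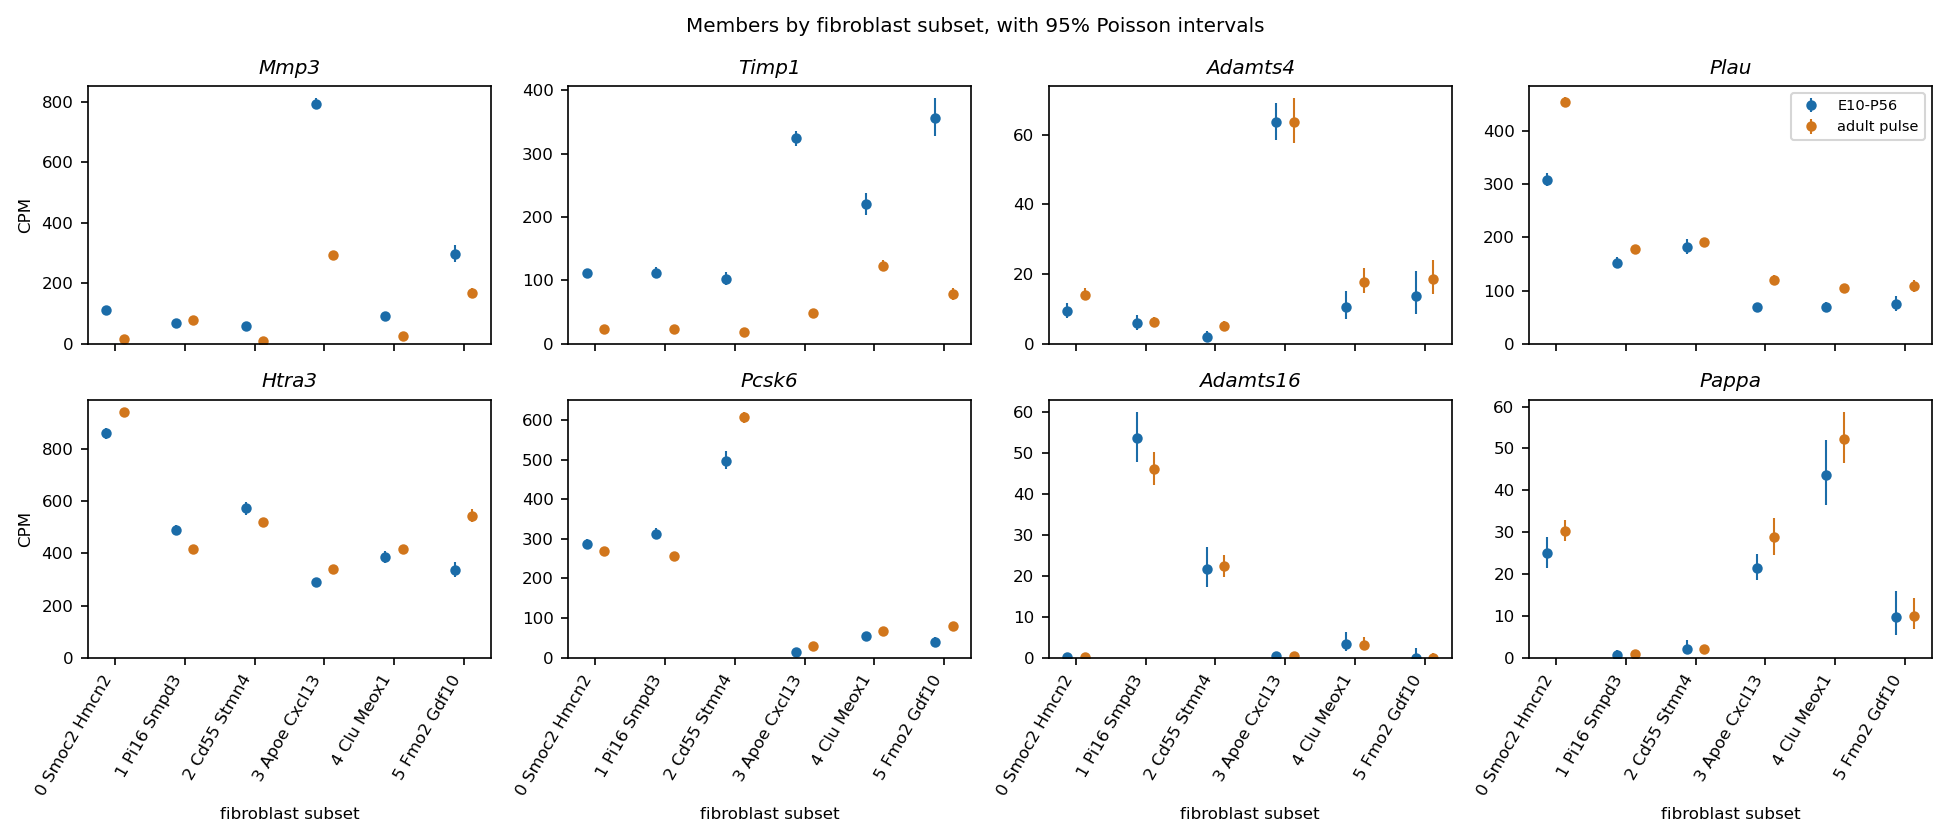
Levels in CPM (vertical axis, from 0) of 8 members in the 6 fibroblast subsets with at least 50 cells in each library, with points for the libraries and bars for 95% Poisson intervals. *Adamts16* stands out in subset 1, *Pcsk6* in subset 2 and *Adamts4* in subset 3 of both libraries, whereas *Mmp3* and *Timp1* differ between the libraries.

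Between the libraries, 6 of 39 members differed by at least 2-fold in fibroblast-like cells, where 9.34% of features did, 4.51% higher and 4.83% lower in the adult pulse. *Mmp3*, *Mmp19*, *Timp1* and *Adamts14* were lower in the adult pulse, and *Mmp11* and *Mmp17* higher. *Timp1* had 396 CPM (390.3 to 402) and 40.1 CPM (38.4 to 41.7), 9.89-fold less. *Mmp3* had 452 CPM (445 to 458) and 68.6 CPM (66.5 to 70.8), 6.58-fold less. *Mmp19* had 75.6 and 28.7 CPM, 2.64-fold less. Abundant members ranged widely in this ratio. It was close to 1 for *Timp2* (adult pulse to E10-P56, 0.986 (0.976 to 0.995)), *Mmp14* (0.992 (0.967 to 1.02)) and *Adamts5* (0.935 (0.922 to 0.947)). It was 0.555 (0.539 to 0.572) for *Adamts1*, 0.676 (0.666 to 0.686) for *Mmp2* and 0.71 (0.702 to 0.717) for *Pcolce*, and 1.71 (1.67 to 1.74) for *Timp3*, all under the 2-fold call. The plot of the libraries shows most members between the 2-fold lines. *Mmp17* rested on 19 and 65 UMIs, and *Mmp11* and *Mmp17* fell under 2-fold without the subsets of under 50 cells in a library, with log2 ratios of 0.87 and 0.94.

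**Figure D4:**
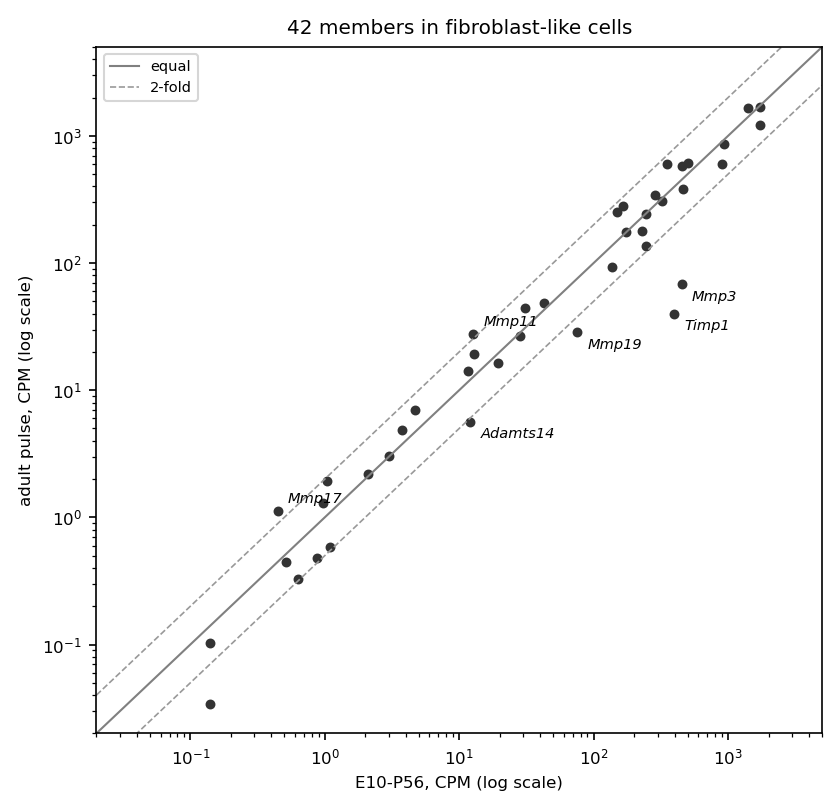
Level of each of the 42 members in fibroblast-like cells of E10-P56 (horizontal) and of the adult pulse (vertical), both in CPM on logarithmic axes, with a line of equality and dashed lines at 2-fold. *Timp1* and *Mmp3* lie farthest below the lower dashed line among members above 1 CPM.

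The 3 subsets with under 50 cells in a library held mostly E10-P56 cells. Subset 7 (*Ccl2*, *Ccl7*, *Cxcl5*), with 321 E10-P56 and 9 adult pulse cells, had 1466 CPM (1434 to 1499.7) in E10-P56 and held 45.2% of the *Timp1* UMIs of its fibroblast-like cells. Subset 6 (led by *Ctla2a* and *Saa3*), with 421 and 42 cells, had 1129.7 CPM (1104 to 1156) and held 38.2% of the *Mmp3* UMIs, while subset 3 held 37.2% of them. Subsets 7 and 6 held 7.72% and 10.1% of E10-P56 fibroblast-like cells, and 12.2% and 15.3% of all UMIs of these cells. Subset 8, with 89 and 8 cells, met the list of satellite cells, the muscle stem cells, and was led by *Pax7*, *Chodl* and *Myf5*. In its E10-P56 cells that list summed to 598 CPM, beside 40820 CPM of the fibroblast list. In its adult pulse cells the sums were 2128 and 2444 CPM. Without these 3 subsets the log2 ratio of the adult pulse to E10-P56 moved from -3.31 to -2.37 for *Timp1* and from -2.72 to -2.23 for *Mmp3*.

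Within the 6 matched subsets *Timp1* was higher in E10-P56 in 6 of 6, by 1.78-fold to 6.66-fold, and *Mmp19* in 6 of 6, by 1.38-fold to 2.72-fold. *Mmp3* was higher in E10-P56 in 5 of 6, the exception being subset 1 with 68.7 and 77.2 CPM. *Adamts14* was higher in E10-P56 in 6 of 6 and *Mmp11* higher in the adult pulse in 6 of 6. Members under the 2-fold call also reached 6 of 6, such as *Mmp2* and *Bmp1* in E10-P56 and *Plau* and *Serpinf1* in the adult pulse. The subsets are part of the pooled cells and the share over all features is not given, so this agreement is not separate evidence. For *Timp1* the fold was smallest in subset 4, with 220.1 and 123 CPM, and largest in subset 3, with 324 and 48.7 CPM. The share of fibroblast-like cells with an *Mmp3* UMI, each cell thinned to 1500 UMIs, was 20.6% (19.3 to 21.8) and 4.90% (4.41 to 5.43) (Clopper-Pearson intervals), and 37.8% and 11.1% before thinning. In Schwann-like cells, which served as background, the thinned share was 1.43% of 140 cells and 0% of 21, at median depths of 7085.5 and 5911 UMIs against 8564.5 and 7662 in fibroblast-like cells. *Timp1* gave thinned shares of 21.5% (20.3 to 22.8) and 4.21% (3.76 to 4.71) in fibroblast-like and 6.43% and 0% in Schwann-like cells. For both genes the 21 adult pulse Schwann-like cells are too few to set a background for shares this low. Other values moved with the library. Summed adipocyte markers were 223 and 4.44 CPM in fibroblast-like cells, and immediate early genes 9211 and 12196 CPM, and their part in the differences was not tested.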

How the data were processed

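The deposited matrices held raw UMI counts of each feature and barcode, which the authors made with Cell Ranger 5.0.0 (E10-P56) and 3.0.2 (adult pulse) on a modified mm10 genome. The totals were 67460919 UMIs over 8236 barcodes (E10-P56) and 69153173 over 9195 (adult pulse). The members, marker lists and wider list were chosen with earlier results of these data known. The labels give collection at postnatal day 56 for both libraries, and the study elsewhere gives a later day for the adult pulse.

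The UMI minimum per cell was 1500 and the mitochondrial limit 10%. Doublets were not removed. Counts were log-normalised to 10000 UMIs, and 2000 variable genes without the members, 30 principal components and 20 neighbours were clustered with leidenalg 0.10.2 at resolution 0.5. A cluster name needed 3 markers, each in at least 10% of its cells with a log2 fold of at least 1 after adding 5 CPM, and a marker among its 10 leading genes. Clusters left over with at least 50 cells were called fibroblast-like on 3 fibroblast markers against the named cells, and were subclustered after subtracting each library's mean. Names rebuilt in this way can differ from the study's.

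UMIs were summed per library and population. Calls needed 1 CPM on average over the libraries, 20 UMIs in the pair, more than 3 UMIs on the higher side and a 2-fold ratio. A count of 0 was set to 3 counts. Cells are not replicates, so no p-value was computed. Members with 20 CPM in a named population of at least 50 cells are named with values (33 of 42), and others are counted. Of the wider list, genes past 4-fold in both libraries may be named. Genes of the list that overlap others on the genome may share reads. The call was tested on simulated counts with changes of 4-fold in each direction and no variation between cells. That simulation does not cover ratios near 2-fold or differences in preparation.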

Additional observations from a re-analysis of the deposited data

How the results depend on the processing

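No paired analysis was possible because each labelling time was 1 library. Of 113 recomputed counts of called members, 108 stayed within 1.5 times the main value. With library means not subtracted, the members spanning 2-fold over fibroblast subsets fell from 29 to 5, with 28 tested and 4.91% of features called. The subsets were redrawn at that setting, and only those with at least 50 cells in each library were compared, so the 2 counts are not over the same subsets. In SMCP-like cells the 26 calls became 14 with cells named singly from their own marker counts and 16 where cells were thinned to 1500 UMIs. With each library clustered alone the perineurial-like calls went from 16 to 10. Shares of all features at these SMCP-like and perineurial-like settings are not given, so the falls are not read as particular to the members. At a 1.5-fold threshold 16 members differed between the libraries in place of 6, where 22.0% of features did. Except for the lower threshold, which admits smaller folds, the cause was not tested. For the named members, no ratio past 2-fold changed direction in any of these settings. A ratio whose log2 fell to 0.0, as for *Timp4* in adult pulse SMCP-like cells, could not count as a change. Many values still moved. Of the ratios to fibroblast-like cells, 68 were classed as weaker, 44 as stronger and 2528 as the same. Of the levels in CPM, 746 were classed as moved and 2554 as the same. On thinning 154 levels moved and 176 did not, and with cells named singly 149 moved and 181 did not. Without the subsets of under 50 cells in a library, chosen after seeing the data, 8 members differed between the libraries. The share of all features at this setting is not given, so the rise from 6 is not read as particular to the members. Scrublet marked 0.312% and 0.163% of cells, too few to be used, so the 5% of cells with the highest scores were left out instead. Depth limits the adult pulse most in Schwann-like (21), VSMC-like (26) and perineurial-like (36) cells, where a single UMI is several CPM.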

Other observations

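Osteochondral-like cells, 62 and 68 in number (E10-P56 first), stood apart for *Adamts8*, with 43.2 CPM (26.0 to 67.5) and 66.3 CPM (48.9 to 87.9) against 0.962 and 1.29 CPM in fibroblast-like cells. In VSMC-like cells of E10-P56 the level was 17.0 CPM (11.8 to 23.6). Both were chosen after their values were seen. The osteochondral-like cells also carried 6122 and 3142 CPM of the tenocyte list. Endoneurial-like cells, 50 and 140, had 988 and 818 CPM of *Mmp2* and 101 and 201 CPM of *Plau*, where perineurial-like cells had 179 and 135 CPM and 30.2 and 17.6 CPM. No test across libraries was possible for these values.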
